A study of Homo sapiens with 6 samples.

Results

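Deubiquitinases are the enzymes that cut ubiquitin from proteins or from ubiquitin chains. The genes described here were chosen by name: every row of the gene table whose symbol belongs to the USP, OTUD or OTUB series, or is UCHL3, UCHL5, BAP1, ATXN3, JOSD1, JOSD2, STAMBP, STAMBPL1, BRCC3, YOD1, ZRANB1, VCPIP1, COPS5 or MINDY1 to MINDY4. The rule took 74 of 32862 rows. It leaves out the enzymes that edit linear chains, among them OTULIN, and UCHL1, PSMD14 and MYSM1, which are given with the partner genes.

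Poly(A)-selected RNA was sequenced from SH-SY5Y, an established human neuroblastoma line with neuron-like properties. The 3 libraries called WT here came from wild-type cells, and the 3 called KO from cells in which CRISPR-Cas9 had been used to knock out OTULIN, with no treatment in either group and all libraries labelled as batch 1. The labels do not say whether the KO cells were 1 clone, nor whether replicates were separate cultures, so a p-value here reflects how far the libraries of a group scatter, which may be technical error alone. The series title concerns tau expression in neurons, and the design compares transcript levels between the 2 genotypes.

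Ubiquitin is attached to proteins singly or as chains, and the linkage within a chain helps to decide whether the protein is degraded by the proteasome, moved within the cell or used as a signalling platform. The USP, UCH, OTU, MJD and MINDY families are cysteine proteases, and the JAMM family are zinc metalloproteases. Neurons depend strongly on this system for protein turnover at synapses and for the clearance of damaged proteins.

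The USP family is recognised by a short stretch around its catalytic cysteine. This stretch is shown, as 30 coding bases from GENCODE 29 transcripts with the cysteine codon in capitals, for the USP genes on which the results below turn. The first 4 lines are the USP genes with the highest levels in WT cells, and the last 6 are those with the most counts in the KO libraries.
USP22: gggctgatcaaccttgggaacacaTGCttc
USP11: ggcctcaccaatctgggcaacacgTGCttc
USP5: ggcatccggaacctgggtaacagcTGCtac
USP1: ggactgaataatctcggcaatactTGCtat
USP34: ggccttactaaccttggagctactTGTtac
USP9X: gggctgaaaaatgccggtgctactTGTtac
USP7: ggcttaaagaatcagggagcgactTGTtac
USP19: ggccttgtcaatttaggcaacaccTGCttc
USP12: ggattagtcaattttgggaataccTGCtac
USP15: ggcctaagtaacttgggaaatacgTGTttc
The cysteine was codon 185 of USP22, codon 90 of USP1, codon 1566 of USP9X and codon 1903 of USP34, so the catalytic domain of the last 2 lies deep within a very long coding sequence. The stretch, sought by a fixed pattern, was matched in 41 of the 48 USP genes. USP39, a splicing factor known to lack the catalytic residues, was among the 7 without a match. The others were USP10, USP47, USP54, USP53, USP50 and USP18. A missed match does not show that an enzyme lacks its catalytic cysteine.

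The depth of the libraries differed between the groups, which bears on everything below. The KO libraries held 725827 to 862932 counts and the WT libraries 61772795 to 64352333, so that the mean WT total was 78.5 times the mean KO total. Mitochondrially encoded genes took 0.00372% to 0.00452% of KO counts and 8.41% to 8.70% of WT counts, and the 10 most abundant genes took 33.2% to 47.1% in KO and 8.64% to 8.90% in WT. OTULIN, the targeted gene, had 0 counts in each KO library and 1682, 2101 and 2155 in WT. That is no firm check of the labels, since 71.3% of the 10820 genes tested were also at 0 in every KO library. Of 13 noradrenergic neuroblastoma markers, 13 were counted in every WT library, 6 were at 0 in all KO libraries and 5 were counted in every KO library; their summed level was 1933 to 2290 CPM (counts scaled to the library total) in KO and 7892 to 8711 in WT. Genotype, depth and composition moved together in all 6 libraries and cannot be told apart, nor can fewer cells and less RNA per cell.

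In WT cells the deubiquitinases formed a graded series led by a histone deubiquitinase, USP22. Levels between genes are given as FPKM, the authors' fragments per kilobase scaled to library depth, with mean ± SD over 3 WT libraries. A total of 16 genes lay above 10 FPKM, 47 between 1 and 10, and 11 below 1, with a median of 4.40 over the 74 genes. Only USP43 lacked a count in some WT library, with 0, 0 and 3 counts. The 10 highest genes held 52.8% of the FPKM of all 74.

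USP22, which removes ubiquitin from histone H2B within the SAGA transcription coactivator, stood at 89.0, 84.0 and 81.9 FPKM in the 3 WT libraries (85.0 ± 3.6). Its gene lies on chromosome 17 at 20999596 to 21043760, minus strand, hg38. USP11, linked to DNA repair, followed at 49.5, 44.3 and 41.3 FPKM (45.0 ± 4.1). The ranges of these 2 genes did not overlap, and USP22 alone held 13.1% of the summed WT FPKM of the deubiquitinases.

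USP5, which takes apart unanchored ubiquitin chains, was at 39.0 ± 0.35 FPKM, close below USP11. USP1, which acts on FANCD2 and PCNA in DNA repair, was at 34.9 ± 2.2. The highest gene of the OTU family was OTUD5 at 28.8 ± 1.1, and its relative OTUB1, which also blocks the E2 enzyme UBE2N without cutting ubiquitin, was at 23.7 ± 1.3. BAP1, a tumour suppressor that removes ubiquitin from histone H2A, led the UCH family at 26.4 ± 0.19. USP39 stood at 21.1 ± 0.70, the proteasome-bound USP14 at 19.5 ± 0.53, and USP19, which has a form anchored in the endoplasmic reticulum, at 19.4 ± 0.45. Among the 73 neighbouring pairs in the order of means, the WT libraries overlapped in 57, so the rank of a gene is known only to within a few places.

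By FPKM the remaining families had lower leaders. MINDY3, of a family that prefers long K48-linked chains, was at 8.82 ± 0.66 FPKM, JOSD1 of the MJD family at 8.72 ± 0.43, and COPS5, the subunit of the COP9 signalosome that removes NEDD8 from cullins, at 6.07 ± 0.17. At the lower end of the genes with a count in every WT library were USP2 with 179, 131 and 119 counts (0.458 ± 0.10 FPKM), USP44 with 150, 115 and 117 (0.342 ± 0.059), USP50 with 40, 34 and 55 (0.152 ± 0.043), USP6 with 94, 99 and 72 (0.110 ± 0.016) and USP18 with 17, 7 and 50 (0.0800 ± 0.076). USP18 removes the interferon-induced modifier ISG15, and its 3 WT values were the most scattered of these 5 genes relative to their mean.

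Reading the order needs the length that was divided out. The ratio of CPM to FPKM gives that length, and over the 74 genes its median was 7331 bases, against 4506 bases for the GENCODE 29 transcript with the longest coding sequence. For UCHL5, a proteasome-bound enzyme, the length used was 5.37 times that of the transcript, and for OTUB1 4.18 times. The UCHL5 transcript had 1355 bases and a coding sequence that did not start with ATG. The longest transcript of UCHL5 had 5327 bases, so its place by this measure is uncertain. Per kilobase of the coding transcript instead, OTUB1 rose from place 7 to place 2 and UCHL5 from place 17 to place 4. USP22 remained first. OTUB1 then stood above OTUD5, at place 8, and UCHL5 above BAP1, at place 11. COPS5, for which the length used was 5.74 times that of the transcript, rose from place 28 to place 10. The 10 highest genes by either measure shared 7 names, and 31 genes in place of 16 lay above 10.

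**Figure D1:**
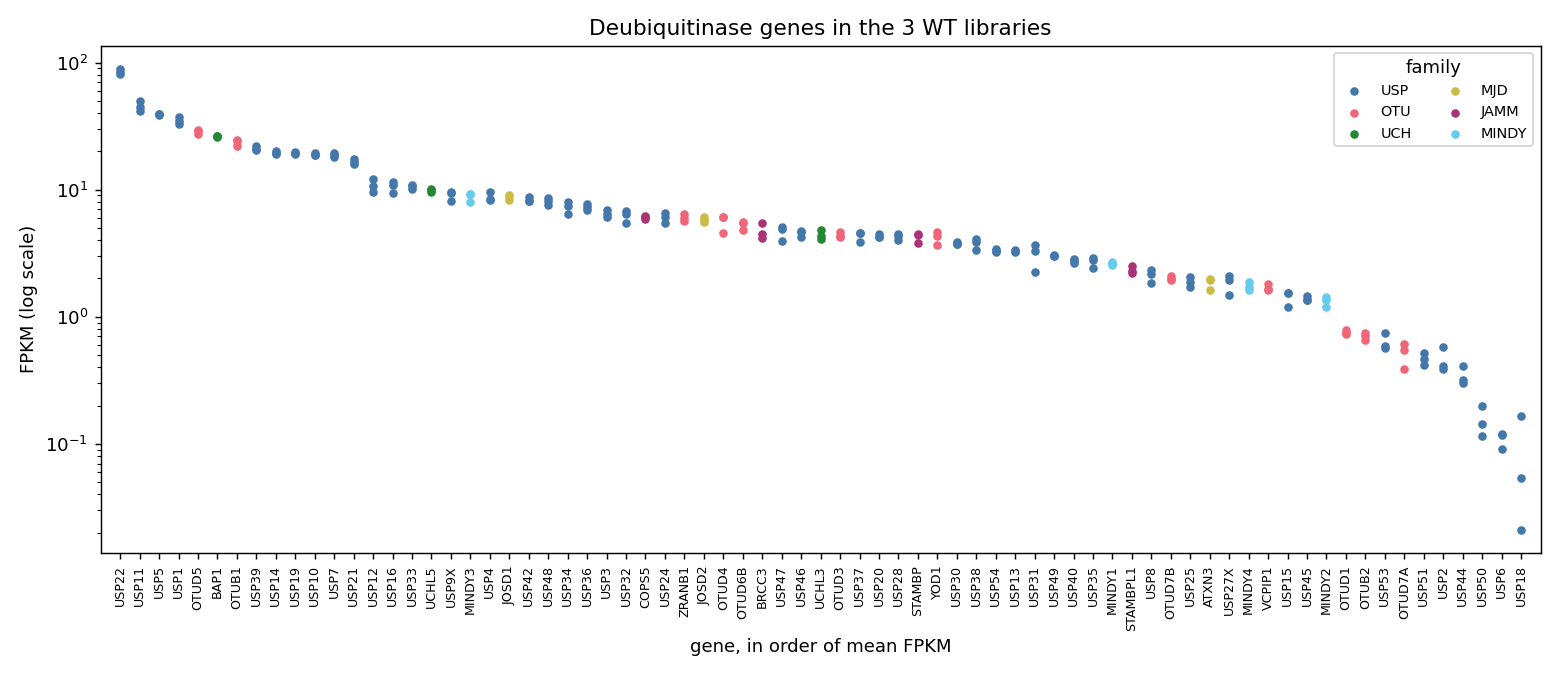
Level of the 73 deubiquitinase genes with a count in every WT library, as FPKM on a log scale. There is 1 point per library, with genes in order of their mean and colour for the enzyme family. USP22 lies highest at a mean of 85.0 FPKM, and the levels fall gradually to USP18 at a mean of 0.0800. USP43 is not shown.

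The WT libraries repeated closely. The coefficient of variation had a median of 6.37% over the genes at 1 FPKM or more. The highest was 24.2% for USP31, with 1856, 2824 and 3018 counts. WT replicate 1 was the lowest of the 3 by FPKM for 39 of the 59 genes tested, USP31 among them, against 8 for replicate 2 and 12 for replicate 3.

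In the KO libraries most deubiquitinase genes had no count, and 91.2% of the deubiquitinase counts fell on 5 genes. Of the 74, 54 were at 0 in all 3 KO libraries, 11 were counted in every KO library, and 9 in only 1 of them. The KO libraries had counts for 13, 11 and 18 of the genes, and the WT libraries for 73, 73 and 74. At their WT share of the counts, 71 of the genes would have had at least 1 count in each KO library, and of the 65 with at least 10 expected counts over the KO group, 45 had none. The genes at 0 would together have had 6189 counts. 

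**Figure D2:**
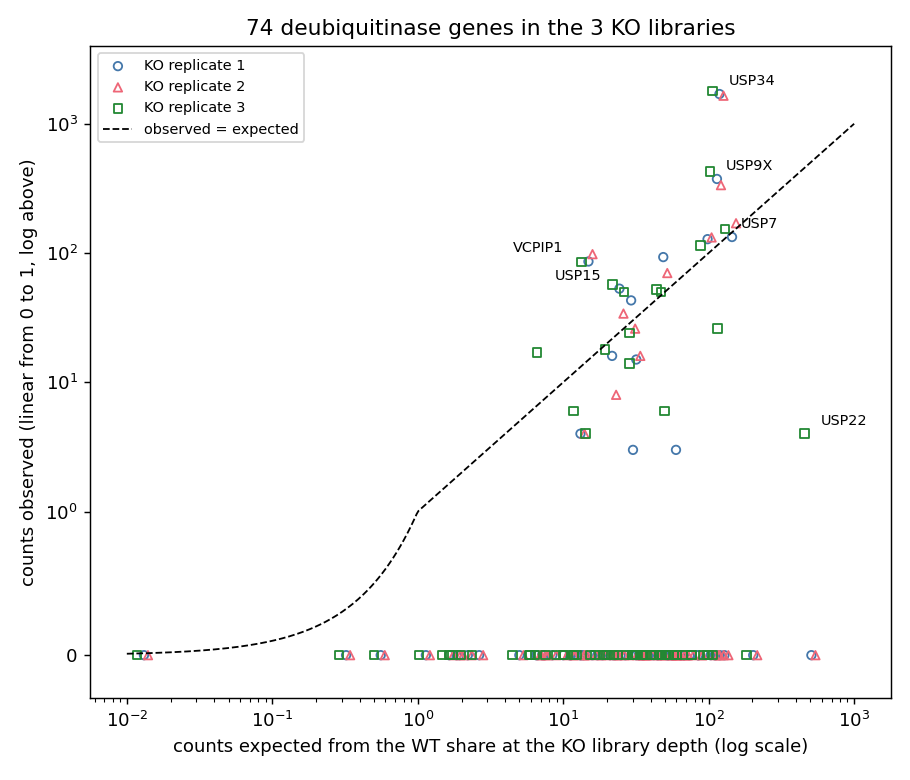
Counts observed in each KO library (vertical axis, linear from 0 to 1 and log above) against the counts expected if each of the 74 genes kept its WT share of the library (horizontal axis, log scale). Most points lie at 0 observed counts over the whole range of expectation. USP34, USP9X, VCPIP1, USP15, USP12 and USP19 lie above the dashed line of equality in all 3 libraries.

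A total of 59 deubiquitinase genes averaged 1 FPKM or more across all 6 libraries and were tested with the whole table; the other 15 fell below that level and have no test. Of the 59, 49 were lower in KO, or 83.1%, where 88.0% of all genes tested were lower. The 4 higher in KO were USP34, USP9X, VCPIP1 and USP15, or 6.78%, against 7.63% of all genes tested. USP19, USP7, USP12, USP32, UCHL3 and USP49 were not called in either direction. Calls are those with a Benjamini-Hochberg adjusted p under 0.05 in edgeR's quasi-likelihood test. The CPM of the groups did not overlap for 55 of the 59, or 93.2%, against 96.2% of all genes tested. Of the same 59 genes, 39 were at 0 in every KO library, or 66.1% against 71.3% of all genes tested, and 11 had a count in each, or 18.6% against 13.9%. The median log2 change was -12.80 over the 59 and -12.42 over all genes tested, values that rest on genes at 0 and on the prior count given to them. The deubiquitinases thus followed the whole table, and a gene at 0 in KO passed the filter only through its WT level, so it had to differ.

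USP34 had by far the most counts of the deubiquitinases in KO. It is a very large enzyme linked to Wnt signalling through axin, encoded on chromosome 2 at 61187463 to 61471087, minus strand, hg38. The KO libraries had 1698, 1648 and 1800 counts and the WT libraries 8023, 9605 and 9969. On the scale of library totals, KO stood at 2162 ± 291 CPM and WT at 147 ± 16 (SD over 3 libraries each), and so 14.8 times as much in KO. All 3 KO libraries lay above all 3 WT libraries. The log2 change with TMM factors was 3.48 (SE 0.12, adjusted p = 4.6e-06, edgeR quasi-likelihood test). USP34 took 63.6% of the deubiquitinase counts in the KO group, where 351 counts were expected and 5146 seen.

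Because USP34 carried most of the deubiquitinase counts in KO, the bases before its start are shown. RefSeq (GRCh38.p14) places the 250 bases upstream at chr2:61471088-61471337, minus strand, and the capitals mark each GGGCGG, the core of a GC box.
USP34: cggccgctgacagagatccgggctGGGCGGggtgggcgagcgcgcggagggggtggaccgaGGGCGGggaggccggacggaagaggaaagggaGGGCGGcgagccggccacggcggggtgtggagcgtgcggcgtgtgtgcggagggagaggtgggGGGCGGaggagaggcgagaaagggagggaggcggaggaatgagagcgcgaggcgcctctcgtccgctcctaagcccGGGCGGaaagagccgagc
This window held 5 copies of GGGCGG on either strand. It held no CCAAT box, no ETS-type motif CCGGAAG, no E-box with the letters CACGTG and no TATA box with the letters TATAAA, each also sought on both strands. Over the 27305 promoters in the table, 42.3% held a GGGCGG in the same window, against 78.9% of the 57 deubiquitinase genes with an entry. For CCAAT the shares were 33% and 28.1%, and for the ETS-type motif 8.82% and 22.8%. The windows also differed in base composition. Median GC was 58.0% over all promoters and 69.6% over the deubiquitinases, and the median number of CG pairs was 11 and 25. Whether the motif shares go beyond base composition was not tested. Among the deubiquitinases with an entry, a GGGCGG was found in 7 of 9 counted in every KO library and in 32 of 40 at 0 in all of them, so these letters did not separate the genes with KO counts from those without.

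USP9X, an X-linked enzyme that spares several substrates from degradation and is needed for neuronal development, was the next most counted. Its gene lies on chromosome X at 41085445 to 41236579, plus strand. There were 374, 335 and 427 counts in KO and 7818, 9461 and 9240 in WT, or 479 ± 101 and 141 ± 13 CPM. The groups did not overlap and USP9X was 3.41-fold higher in KO (log2 change 1.36, SE 0.15, adjusted p = 9.7e-05, edgeR quasi-likelihood test).

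VCPIP1, an OTU enzyme that works with the ATPase p97 in rebuilding the Golgi after division, had few reads in either group but the smallest standard error of the 4 genes higher in KO. It had 86, 98 and 85 counts in KO, where 44.2 were expected in all, and 1092, 1264 and 1116 in WT. This was 112 ± 5.6 CPM in KO and 18.4 ± 1.1 in WT, 6.10-fold higher, with no overlap (log2 change 2.21, SE 0.09, adjusted p = 8.1e-06, edgeR quasi-likelihood test). In WT it was among the lower genes, at 1.70 ± 0.10 FPKM.

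USP15, which acts on receptor-activated SMADs and opposes parkin at mitochondria, had 53, 34 and 57 counts in KO and 1565, 2090 and 2012 in WT. Its CPM were 61.1 ± 20 in KO and 30.1 ± 4.3 in WT, with no overlap, although KO replicate 2 at 39.4 CPM came close to the highest WT library at 32.6. The log2 change was 0.61 (SE 0.21, adjusted p = 0.028, edgeR quasi-likelihood test). That call was lost with median-ratio factors (0.05, adjusted p = 0.80), and also without KO replicate 1 (adjusted p = 0.079), KO replicate 3 (0.12) or WT replicate 1 (0.069) in the same edgeR test. The increase of USP15 therefore depended on the scaling and on single libraries.

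A further 4 genes were counted in every KO library and not called in either direction. USP7, which controls p53 through MDM2, had 133, 170 and 153 counts in KO and 10780, 11869 and 11014 in WT, or 191 ± 24 and 179 ± 5.6 CPM. The KO values of USP7 spanned the WT values, and the log2 change was -0.30 (SE 0.13, adjusted p = 0.07, edgeR quasi-likelihood test). USP19 had 128, 132 and 114 counts in KO and 7505, 8005 and 7351 in WT, or 156 ± 2.7 and 121 ± 2.8 CPM.

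For USP19 all KO libraries were above all WT libraries in CPM, yet the log2 change with TMM factors was -0.03 (SE 0.09, adjusted p = 0.74, edgeR quasi-likelihood test), since for genes counted in every KO library TMM factors lower the change by about 0.39 relative to library totals. USP12, which works with WDR48 and WDR20, had 93, 70 and 52 counts in KO and 3334, 3828 and 4170 in WT (89.2 ± 23 and 60.2 ± 7.0 CPM, with no overlap). USP49, another enzyme acting on histone H2B, had 43, 26 and 50 in KO and 2241, 2309 and 2265 in WT (50.7 ± 19 and 36.2 ± 0.42 CPM). Their log2 changes were 0.18 (SE 0.17) and 0.06 (SE 0.20), with adjusted p of 0.34 and 0.76 in the edgeR test. The signs of USP7, USP19, USP12 and USP49 each flipped under another scaling, so no direction is given for them.

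Another 3 genes were counted in every KO library at less than their WT share. ZRANB1, an OTU enzyme known for K29- and K33-linked chains, had 15, 16 and 14 counts in KO and 2295, 2516 and 2580 in WT, 2.09-fold lower in CPM (log2 change -1.46, SE 0.11, adjusted p = 2e-05, edgeR quasi-likelihood test). Its locus overlaps CTBP2 on the opposite strand, which had 28, 32 and 15 KO counts, and the strandedness of the counting is not given. OTUD7B, an enzyme for K11-linked chains, had 16, 8 and 18 counts against 1644, 1659 and 1738 (1.49-fold lower; log2 change -1.0, SE 0.22, adjusted p = 0.0037, edgeR test), and its call was lost with library totals alone (adjusted p = 0.052) and in limma on log2(FPKM + 1) and log2(FPKM + 0.1) (adjusted p of 0.096 and 0.12). USP25, a relative of USP28, had 4, 4 and 6 counts against 921, 1141 and 999 (2.73-fold lower; log2 change -1.87, SE 0.21, adjusted p = 0.00011, edgeR test). For none of ZRANB1, OTUD7B and USP25 did the CPM of the groups overlap.

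**Figure D3:**
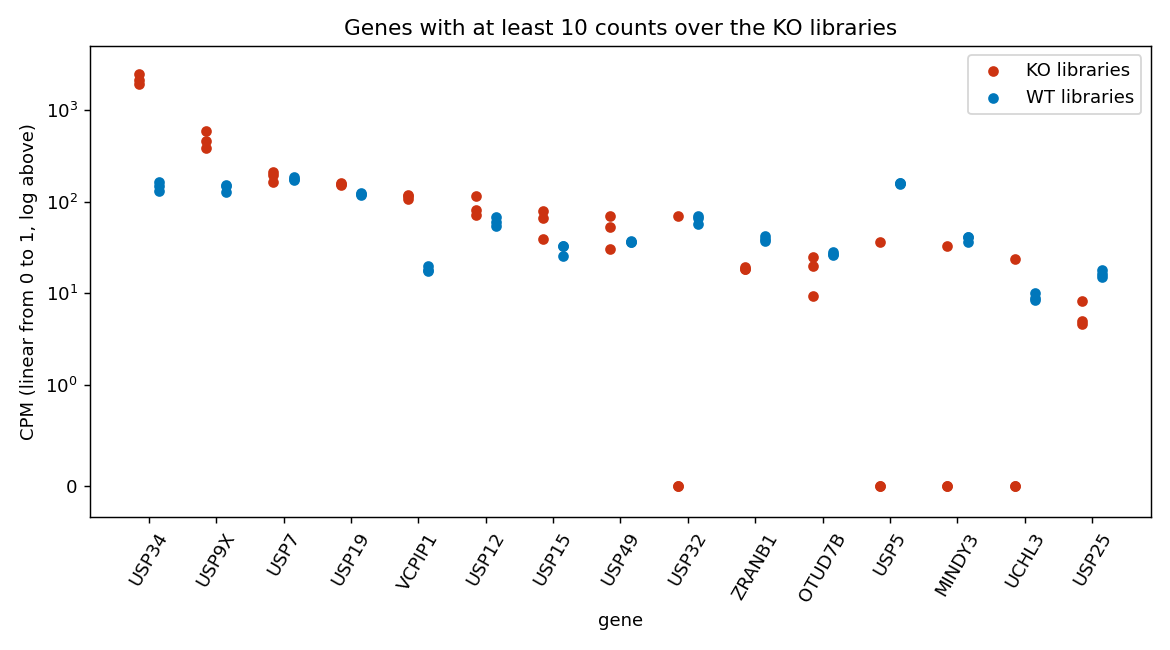
CPM in each KO and WT library for the deubiquitinase genes that had 10 or more counts in the KO libraries together, on an axis linear from 0 to 1 and log above. USP34, USP9X and VCPIP1 lie clearly higher in KO, USP7 overlaps, and USP5, USP32, UCHL3 and MINDY3 have a single KO library above 0.

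Another 9 genes, all of them tested, had counts in only 1 KO library. Over all genes tested, 71.3% were at 0 in every KO library, 13.9% had a count in each, and the rest lay between. For 7 of the 9 genes that library was KO replicate 3, and for the other 2, USP36 and USP54 with 3 counts each, it was KO replicate 1. In the whole table KO replicate 3 also had counts for the most genes, 2567 against 2306 in KO replicate 1 and 2373 in KO replicate 2. In KO replicate 3, USP5 had 26 counts, USP32 50, MINDY3 24 and UCHL3 17, while the other 2 KO libraries had none. USP22, the highest gene in WT at 40876, 39918 and 37453 counts, had 0, 0 and 4 where 1506 were expected over the group, 342-fold lower in CPM (log2 change -8.94, SE 0.54, adjusted p = 1.2e-05, edgeR quasi-likelihood test).

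Within KO replicate 3 the counts of USP32 and MINDY3 were near those expected in that library, 47.0 and 28.5, while UCHL3 was above its 6.63 and USP5 below its 115. Over the 3 libraries the KO mean of USP32 was 23.0 ± 40 CPM against 64.7 ± 6.8 in WT. USP32 (adjusted p = 0.052) and UCHL3 (0.47) did not pass the edgeR test, and without KO replicate 3 both were at 0 and were lower (adjusted p = 4.5e-05 and 0.00018). MINDY3 was lower at an adjusted p of 0.026 in the edgeR test. Its call was lost without KO replicate 1 or 2 or WT replicate 1 or 2, at adjusted p of 0.051 to 0.060 in the same test, and also with library totals (0.055), DESeq2 (0.16) and limma on log2(FPKM + 0.1) (0.067). USP5 remained lower (log2 change -4.25, SE 0.79, adjusted p = 0.0017, edgeR test). The rest of those counted only in KO replicate 3 were USP21 with 6 and ATXN3 with 4; these, USP36 and USP54 are named after their values were seen.

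The genes at 0 in every KO library included most of the abundant deubiquitinases. Against a floor of 3 counts over the 2398362 counts of the KO group, or 1.25 CPM, the tested genes at 0 were at least 7.07-fold to at least 200-fold lower, with a median bound of 44.0-fold. USP11, with 17071, 15835 and 14176 WT counts and 600 expected in the KO group, was at least 200-fold lower. USP1 was at least 118-fold lower, OTUB1 at least 110-fold, BAP1 at least 108-fold and USP14 at least 102-fold. For OTUD5 and USP10, an enzyme that acts on p53 and binds the stress granule protein G3BP1, the bounds were 83.7-fold and 83.8-fold. For USP39 the bound was 73.0-fold, and for USP48 and STAMBP, which trims K63-linked chains at endosomes, it was 66.7-fold each. All 39 tested genes at 0 were called lower with an adjusted p of at most 0.00064 (edgeR quasi-likelihood test). For 3 of the untested genes, USP50, USP18 and USP43, fewer than 3 counts were expected over the KO group, so their absence says nothing at this depth. Intervals and floors cover counting error only.

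By family, KO counts in every library were found for 8 of 48 USP and 3 of 12 OTU genes, and for none of the 3 UCH, 3 MJD, 4 JAMM and 4 MINDY genes. Over all genes tested, 13.9% had a count in every KO library, 88.0% were lower and 7.63% higher. The USP family had 38 genes tested, of which 30 were lower, 3 higher and 5 not called. The OTU family had 9 tested, with 8 lower and VCPIP1 higher. Of the UCH genes UCHL5 and BAP1 were lower and UCHL3 was not called, and the 3 MJD, 4 JAMM and 2 tested MINDY genes were lower.

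The roles are given beside the 88.0% lower and 7.63% higher of all genes tested, and the counts are too small to read a difference from. All 4 enzymes of the proteasome and of free ubiquitin (USP14, UCHL5, USP5 and USP13) were lower, 3 of them at 0. Of 7 tested enzymes of chromatin, 5 were lower and USP7 and USP49 were not called. Of 9 in DNA repair and checkpoints, 8 were lower and USP12 was not called. The 3 endosomal enzymes USP8, STAMBP and STAMBPL1 were at 0 in KO. Among 5 linked to p97 or the endoplasmic reticulum, VCPIP1 was higher, USP19 was not called, and YOD1, ATXN3 and USP25 were lower. Of 3 acting at mitochondria USP15 was higher and USP30 and USP35 were lower, and both enzymes linked to splicing, USP39 and USP4, were lower. Among 4 large or Wnt-linked enzymes USP34 and USP9X were higher and USP24 and ZRANB1 lower. Of the 2 tested that act on ISG15 or NEDD8, COPS5 was lower and UCHL3 was not called.

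Close relatives did not always go together in KO. Of 22 pairs, drawn from a list in which 11 of 74 genes were counted in every KO library and 54 were at 0, 8 were at 0 for both genes and 7 had 1 gene counted in every KO library and the other at 0. In 3 of these 7 the gene at 0 was the one with more counts expected. An example is USP15. It stood at 1.42 ± 0.20 FPKM in WT, against 45.0 ± 4.1 for its relative USP11 and 8.74 ± 0.72 for USP4. The length behind the FPKM of USP15 was 4.47 times that of its coding transcript. Per kilobase of the coding transcript, USP15, USP11 and USP4 stood at 6.33, 74.9 and 22.4 CPM in WT. Yet USP15 had 144 KO counts, while both relatives had none where 600 and 168 were expected. USP25 likewise had 14 KO counts and USP28, the higher gene in WT, had 0.

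In the other 2 tested pairs the higher gene in WT kept its counts. USP7 had 456 KO counts with 429 expected, and USP47 had 0 with 167 expected. USP12 had 215 with 144 expected, and USP46, which shares its WDR48 cofactor, had 0 with 106 expected. The 8 pairs at 0 for both genes included STAMBP with STAMBPL1 and JOSD1 with JOSD2. Over the WT libraries the FPKM ratio was 2.29 to 2.55 for USP12 over USP46 and ranged more widely, from 27.0 to 41.7, for USP11 over USP15.

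The genes with KO counts had long transcripts. The longest GENCODE 29 transcript had a median of 8872 bases and 40.4% GC for the 11 genes counted in every KO library, against 4312 bases and 45.1% GC for the 54 at 0. Their median WT levels were 39.3 and 36.9 CPM, and the 39 tested genes at 0 had a median of 55.1 CPM, 4502 bases and 44.6% GC. The same order was seen over the tested genes of the whole table with a transcript, at 4652 bases and 45.1% GC for those with a count in every KO library and 3090 bases and 49.3% GC for those at 0, with median WT levels of 78.9 and 41.6 CPM. No test was made of these differences.

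Of all counts, the 74 genes took 0.327%, 0.294% and 0.400% in the KO libraries (0.341% ± 0.054) and 0.436%, 0.454% and 0.457% in WT (0.449% ± 0.011, SD over 3 libraries each). KO and WT shares did not overlap (p = 0.1 by a two-sided exact permutation test, which can give no smaller value with 3 libraries against 3). Without USP34 the shares were 0.124% ± 0.025 in KO and 0.435% ± 0.0097 in WT. With mitochondrial genes and the 10 most abundant genes of each library left out of the total, the order turned, at 0.572% ± 0.024 in KO and 0.499% ± 0.012 in WT, so the direction of the share rests on what else filled the libraries.

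For the genes counted in every KO library the size of the change moved with the scaling. Relative to TMM factors, their log2 changes shifted by about -0.56 with median-ratio factors and by about 0.39 with library totals, while the fitted changes of genes at 0 in KO hardly moved (USP11 was at -15.96, -15.98 and -15.96 with TMM, median-ratio and library totals). USP34 kept a log2 change of 2.92 with median-ratio factors and 3.88 with library totals, USP9X 0.80 and 1.77, and VCPIP1 1.66 and 2.61, each past the threshold of the edgeR test. For USP7, USP19, USP12 and USP49 the sign changed with the scaling. With library totals USP19 (adjusted p = 0.0064) and USP12 (0.020) passed as higher in the edgeR test. With median-ratio factors USP19 (adjusted p = 0.0011), USP7 (0.00029) and USP49 (0.032) passed as lower in the same test.

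**Figure D4:**
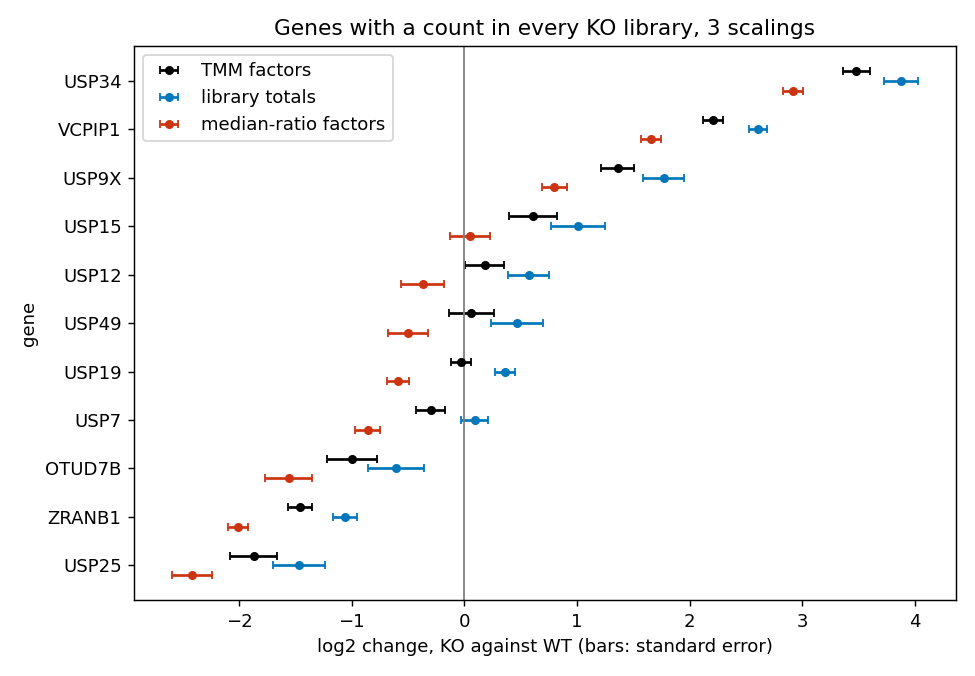
Log2 change of KO against WT, with its standard error, for the 11 deubiquitinase genes counted in every KO library, under TMM factors, median-ratio factors and library totals. USP34, VCPIP1 and USP9X stay above 0 under all 3 scalings, USP25, ZRANB1 and OTUD7B below 0, and the points of USP7, USP19, USP12 and USP49 fall on both sides.

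Most genes whose products work with these enzymes were also lower. The list held 49 genes: cofactors and complex partners, ubiquitin genes, and 5 genes of deubiquitinases or proteins resembling them outside the naming rule. Of 47 tested, 35 were lower in KO (74.5%), 9 higher (19.1%) and 3 not called, beside the 88.0% lower and 7.63% higher of all genes tested, and the median log2 change was -12.17. The polyubiquitin gene UBB had 8, 10 and 25 counts in KO and 37642, 41674 and 41739 in WT, and was lower (log2 change -5.54). RPS27A, which encodes ubiquitin fused to a ribosomal protein, was lower too, at 0 in KO with 934 counts expected. UCHL1, the abundant neuronal ubiquitin hydrolase, had 4, 4 and 0 counts against 34213, 34915 and 33432, 171-fold lower in CPM.

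Among the 9 partners higher in KO were ENY2, a subunit of the SAGA deubiquitinase module that holds USP22, and WDR20, the cofactor of USP12. ENY2 had 1610, 1496 and 1494 counts in KO and 4337, 5033 and 4886 in WT, 25.5-fold higher in CPM (log2 change 4.27, SE 0.09, adjusted p = 1e-06, edgeR quasi-likelihood test). WDR20 had 102, 84 and 90 against 1786, 2039 and 1771 (3.90-fold; log2 change 1.56), while the other cofactor WDR48 had 0 counts in each KO library and was at least 62.2-fold lower. In the SAGA module ATXN7L3 had 150, 116 and 129 counts against 8528, 8461 and 7785 and was not called (log2 change -0.07, adjusted p = 0.55, edgeR test), and ATXN7, which was not tested, had 10 KO counts where 40.9 were expected. PSMD14, the deubiquitinase of the proteasome lid, was 9.39-fold higher, with 964, 701 and 826 counts against 6731, 7144 and 7125 (log2 change 2.83). ENY2 was thus high in the libraries in which USP22 was nearly absent.

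OTUB1 was at 0 in KO, and of the 4 genes listed for E2 enzymes it binds, 3 were higher and UBE2D1 was lower. UBE2N was 14.2-fold higher, UBE2D2 28.5-fold and UBE2D3 38.3-fold, with log2 changes of 3.43, 4.43 and 4.86 (adjusted p of at most 2e-06, edgeR quasi-likelihood test). UBE2D1 had 0 counts in each KO library and 2397, 2730 and 2604 in WT, at least 32.8-fold lower. Genes with near-identical copies such as these may share reads with them. STAM, the endosomal partner of STAMBP, was 1.98-fold higher (log2 change 0.60), a call lost with median-ratio factors (0.04, adjusted p = 0.74 in the edgeR test). The other 2 genes of the same endosomal complex were lower: STAM2 was at 0 in KO, at least 16.2-fold lower, and HGS was 175-fold lower. Beside COPS5, which was at 0 in KO, the list held 8 genes of the COP9 signalosome. COPS2 (log2 change 2.02) and COPS6 (0.97) were higher, and the other 6, GPS1, COPS3, COPS4, COPS7A, COPS7B and COPS8, were lower, 4 of them at 0.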

How the data were processed

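Counts per gene and library are whole numbers as the authors deposited them, not normalized, and the deposited FPKM values beside them are named as such in the authors' file headers. Per the submitters' processing notes, the genome build was hg38 and the tools were HISAT2 2.0.4, StringTie 1.3.4d, cutadapt 1.9 and DESeq2. Which annotation release and strandedness were used is not given in the sources used here. Genes averaging 1 FPKM or more (10820 of 32862) were tested with edgeR 4.0.16 (R 4.3.3; quasi-likelihood, TMM factors, genotype only) and Benjamini-Hochberg adjustment over all of them. Each standard error is the size of the log2 change divided by the root of its F statistic. TMM and median-ratio factors assume that most genes do not change. Here 88.0% of the genes tested were called lower and 7.63% higher, so the assumption was not met. Log2 changes and calls near the threshold carry this uncertainty. CPM are counts scaled to the library total, folds are ratios of mean CPM, and expected counts are the WT mean CPM times the KO total. Replicate pairs differed beyond counting noise (chi-square 16.9 to 47.6 per degree of freedom).

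Sequence features came from GENCODE 29 transcripts, which had a coding sequence for all 74 genes, and RefSeq promoters, which matched 57. The stretch around the USP cysteine was found by a fixed pattern in the translated sequence.

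The genes, gene lists and naming rule were chosen with earlier results of these data known. The rule named the 10 highest and 5 lowest genes in WT, those with at least 10 KO counts, those higher in KO, the 10 at 0 with the most expected counts, the leader of each family, tested pairs, and, among partners, those higher and the 5 lower ones most abundant in WT. Not every gene it took is reported here. Other genes named with values were chosen after their values were seen. Alternatives were median-ratio factors, library totals, no filter, a minimum mean of 5 FPKM, DESeq2 1.42.0, limma 3.58.1 on log2(FPKM + 1) and log2(FPKM + 0.1), a replicate block and leaving out each library; CPM per kilobase of the coding transcript was added after the data were seen. The edgeR script was tested on simulated data in which most genes were unchanged. That setting is unlike these data, so it does not show that the calls here are right. Python 3.11.15, pandas 2.3.3, numpy 2.4.6, scipy 1.17.1 and matplotlib 3.10.9 were used.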

Additional observations from a re-analysis of the deposited data

How the results depend on the processing

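The count of 49 deubiquitinases lower in KO was 47 to 62 under other scalings, tests and filters other than the mean of at least 5 FPKM, where 16 were lower among fewer genes tested, and 48 to 51 when each library was left out in turn; that of 4 higher was 3 to 6, and 3 to 4 by library. Partners lower numbered 23 with at least 5 FPKM, and 35 to 36 by library, where 9 were higher each time. With the replicate block 1 deubiquitinase, USP22, was lower and 2, USP34 and USP9X, were higher, and 5 partners were lower. VCPIP1 lost its call there (adjusted p = 0.054, edgeR test). Deviations of same-numbered libraries were barely correlated (r = 0.05, -0.06 and 0.07 over 1309 genes). At the KO depth this cannot decide whether the numbers are a pairing, and the labels do not say. The difference in share of counts, KO minus WT, was -0.173 percentage points on the FPKM sum, 0.0725 without mitochondrial and top genes, and -0.139 to -0.0855 by library. In WT, 31 genes exceeded 10 CPM per kilobase of the coding transcript.

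Of 106 genes recomputed, 92 lost or gained a call or turned under some alternative. Leaving the block aside it was 13, and 7 genes turned. USP19 was 0.36 (library totals), 0.31 and 0.32 (limma, pseudocount 1 and 0.1), 0.00 without WT replicate 1 and 0.05 without WT replicate 2 (-0.08 to 0.05 by library). USP7 was 0.09, 0.05 and 0.05 in the first 3 of these. USP12 was -0.37 with median-ratio factors and with DESeq2, -0.14 at 5 FPKM and -0.01 without KO replicate 1 (-0.01 to 0.33 by library). USP49 was -0.50 with median-ratio factors and with DESeq2, -0.07 without the filter and -0.18 without KO replicate 3 (-0.18 to 0.29 by library). Among partners, ATXN7L3 was 0.33 (library totals), 0.27 and 0.28 (limma), 0.01 without KO replicate 2 and 0.00 without WT replicate 1 (-0.13 to 0.01 by library); G3BP2 was -0.41 with median-ratio factors and with DESeq2 and -0.17 at 5 FPKM; OGT was 0.03 with library totals. The cause was not tested. The KO depth limits every change: a gene under 1.25 CPM there would go unseen, and genotype and depth cannot be told apart.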
